A study of Mus musculus with 2 samples.

Results

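Genes for ribosome assembly factors, the RNA exosome and RNA polymerase I were compared between CD4 T cells activated with antigen-presenting cells (APC) that carry an OX40L transgene (OX40L-Tg) and CD4 T cells activated with wild type (Wt) APC. Members were all genes whose symbol is Nop, Rrp, Utp or Exosc followed by a digit, or Polr1 followed by a letter, taken from probe sets with a single gene symbol. The rule found 38 genes with 64 probe sets among 17097 genes with 28898 probe sets. The rule uses symbols and no measured value, but it was set with earlier results of these data known. Of 42 mouse RefSeq symbols of these forms, Exosc4, Exosc7, Utp14a and Utp25 were not analysed here.

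The RNA came from naive, Foxp3-negative CD4 T cells of 6-week-old C57/Bl6 mice with a Foxp3-eGFP reporter, an allele that both groups share. In both groups the cells were cultured for 48 hours with anti-CD3 in solution, an antibody that stimulates through the T cell receptor, and with splenocytes depleted of T cells and treated with mitomycin C at 50 ug/ml. These APC came from OX40L-Tg mice for one culture and from Wt B6 mice for the other, and living CD4 T cells were sorted again before RNA extraction. The sources used here do not give the promoter that drives the transgene. Each group has 1 array, an Affymetrix HT MG-430 PM, so no difference below has a replicate check, a standard error or a p-value.

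Ribosomes are built in the nucleolus. RNA polymerase I transcribes one long precursor of the ribosomal RNAs, small nucleolar RNPs (snoRNPs) modify it, and a large set of transient factors folds and cleaves it while the ribosomal proteins bind. The RNA exosome, a ring of subunits with attached nucleases, trims and degrades the pieces that are left. T cells that leave the resting state enlarge their nucleoli and make ribosomes at a high rate, and the transcription factor Myc is a known activator of many of these genes. OX40 is a costimulatory receptor on activated T cells, and OX40L is its ligand on APC.

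Most members had a slightly higher value in T cells activated with OX40L-Tg APC, and none differed by 1.5-fold. Of the 38 members, 32 (84.2%) were higher with OX40L-Tg APC, beside 54.0% of the 10541 genes above the floor. The floor was the median of all probe sets on an array, 14.7 units on both, and all 38 members reached it. Differences are log2 values, OX40L-Tg APC minus Wt APC, and their median over the members was 0.12, beside 0.02 over all genes above the floor. The quartiles of the members' differences were 0.04 and 0.25, beside -0.12 and 0.16 for all genes above the floor. At least 1.5-fold higher were 0 members, beside 3.85% of all genes above the floor, and at least 1.5-fold lower were 0 members, beside 3.36% of them. Each array reads the RNA of a whole sorted sample, in which fewer cells of a type and less RNA per cell cannot be told apart.

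Promoter sequence is shown for Nop2, Rrp9, Polr1c, Exosc5 and Utp18, at ranks 2, 3, 4, 12 and 31 of the 38 differences, highest first. It sets the best known Myc binding motif, the E-box with the letters CACGTG, beside the values. RefSeq windows of the mouse assembly GRCm38.p6, from 250 bases before to 50 after the annotated start, were matched for 32 of 38 members. The motif reads the same on both strands, so both were searched. The last 150 bases before the start are given 5' to 3' on the strand of the gene, with the E-box in capitals. Nop2 lies on the plus strand (chr6:125131733-125131882), as do Exosc5 (chr7:25659003-25659152) and Rrp9 (chr9:106477159-106477308). Utp18 (chr11:93885767-93885916) and Polr1c (chr17:46248046-46248195) lie on the minus strand.
Nop2: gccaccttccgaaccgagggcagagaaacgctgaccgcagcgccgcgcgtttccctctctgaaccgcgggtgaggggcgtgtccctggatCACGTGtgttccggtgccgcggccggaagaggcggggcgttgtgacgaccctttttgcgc
Exosc5: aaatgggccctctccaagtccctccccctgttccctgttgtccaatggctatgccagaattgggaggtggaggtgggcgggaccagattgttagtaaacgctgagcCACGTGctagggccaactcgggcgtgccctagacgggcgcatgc
Utp18: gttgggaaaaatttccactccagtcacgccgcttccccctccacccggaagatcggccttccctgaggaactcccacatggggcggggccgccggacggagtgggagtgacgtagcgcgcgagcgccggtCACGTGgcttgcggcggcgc
Rrp9: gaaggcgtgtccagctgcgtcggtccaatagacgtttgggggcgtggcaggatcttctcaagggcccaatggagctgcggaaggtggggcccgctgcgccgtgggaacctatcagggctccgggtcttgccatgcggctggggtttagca
Polr1c: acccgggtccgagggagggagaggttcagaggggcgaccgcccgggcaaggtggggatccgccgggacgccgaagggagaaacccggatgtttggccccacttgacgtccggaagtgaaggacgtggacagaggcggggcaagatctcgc
In these windows the E-box starts at position -60 of Nop2, -44 of Exosc5 and -20 of Utp18, counted back from the start, and the letters are in neither the Rrp9 nor the Polr1c window.

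The E-box was in the windows of 7 of the 32 members (21.9%): Nop2, Exosc5, Utp4, Utp20, Utp18, Rrp7a and Utp14b. Of the genes above the floor that have a window, 11.7% held it (1005 of 8580), and of all 32851 windows 7.15% did. The median difference was 0.10 for the 7 members with the motif and 0.13 for the 25 without it. Their ranges overlapped, at -0.26 to 0.37 with the motif and -0.07 to 0.35 without. Over all genes above the floor that have a window, the median was 0.04 with the motif and 0.01 without it. A match of letters is a description and shows no binding.

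RNA polymerase I had 5 members, and 4 of them were higher with OX40L-Tg APC, with a median difference of 0.12. Polr1a, the largest subunit and part of the catalytic centre, had 375 units with OX40L-Tg APC, against 345 units with Wt APC, a difference of 0.12. Polr1b, the second largest subunit, with which Polr1a forms that centre, had 397 units with OX40L-Tg APC, against 324 units with Wt APC (0.30, 1.23-fold). The pair that makes the active site thus had the higher value on the same array. The gap between them depended on the probe set, since the other probe sets of Polr1a differed by 0.35 and 0.12. For Polr1e, which binds an initiation factor, the values were 298 units with OX40L-Tg APC and 289.9 units with Wt APC, a difference of 0.04.

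The remaining pair, Polr1c and Polr1d, is shared with RNA polymerase III, and its members form a dimer on which the enzyme assembles. Polr1c had 1446 units with OX40L-Tg APC, against 1168 units with Wt APC, which is 1.24-fold (0.31). Polr1d had 3367 units with OX40L-Tg APC, against 3402 units with Wt APC, a difference of -0.01. The partners of the dimer therefore differed from each other in direction, although the 2 probe sets of Polr1d differed by only -0.04 and -0.01.

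Genes of the enzyme outside the symbol rule went both ways. The 4 analysed subunits shared by all 3 nuclear polymerases were higher with OX40L-Tg APC, by 0.03 to 0.17. They were picked for this after their values were seen. Znrd1 and Twistnb, small subunits of RNA polymerase I that the symbol rule misses and that were picked after their values were seen, differed by -0.15 and -0.07. Znrd1 had 709 units with OX40L-Tg APC and 788 units with Wt APC, and Twistnb had 759.6 units with OX40L-Tg APC and 797 units with Wt APC. With them, 3 of the 5 specific subunits analysed were higher with OX40L-Tg APC.

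Among initiation and regulatory factors of RNA polymerase I, in which Znrd1 and Twistnb were counted, 6 of 11 had the higher value and the median difference was 0.00. Rrn3, the factor that couples growth signals to the polymerase, had 448 units with OX40L-Tg APC, against 363 units with Wt APC (0.30, 1.23-fold). Taf1d and Taf1b belong to the promoter selectivity complex SL1. Taf1d had 672 units with OX40L-Tg APC, against 539 units with Wt APC (0.32), while Taf1b had 176 units with OX40L-Tg APC, against 209.7 units with Wt APC (-0.25). Ubtf, which keeps the rRNA genes in an open state, had 754 units with OX40L-Tg APC and 752 units with Wt APC, a difference of 0.00. The other probe set of Ubtf above the floor differed by 0.11. The list as a whole was split in direction, with members on both sides of 0 by similar amounts.

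**Figure D1:**
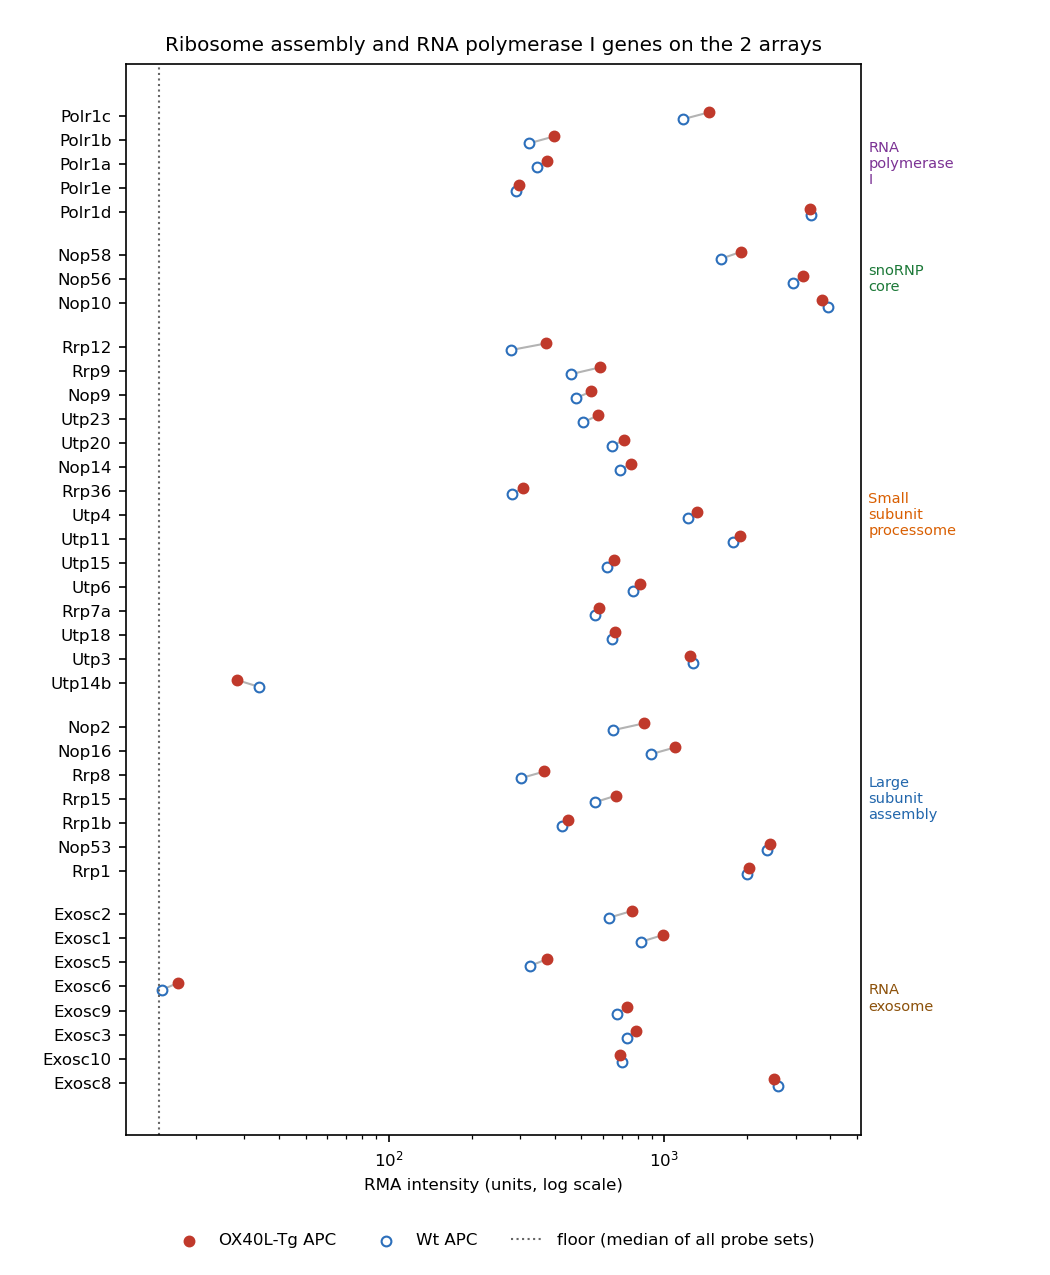
Intensity of each of the 38 members on both arrays, on a log axis in RMA units, grouped by role and ordered by difference within a role. Filled points are OX40L-Tg APC and open points Wt APC, 1 array each, and the dotted line is the floor of 14.7 units; the pairs lie close together everywhere, and Exosc6 and Utp14b are the members near the floor.

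The snoRNP core proteins among the members were Nop58, Nop56 and Nop10. Nop58 and Nop56 hold box C/D snoRNAs, which guide the methylation of rRNA by fibrillarin. Nop58 had 1892 units with OX40L-Tg APC, against 1607 units with Wt APC (0.24, 1.18-fold), and Nop56 had 3169 units with OX40L-Tg APC, against 2935 units with Wt APC (0.11, 1.08-fold). Fibrillarin itself, encoded by Fbl, had 3422 units with OX40L-Tg APC and 3277 units with Wt APC, a difference of 0.06. Snu13, the other core protein, had 3471 units with OX40L-Tg APC and 3472 units with Wt APC, and was named after its values were seen. Of the 4 core proteins of box C/D snoRNPs, 3 were slightly higher with OX40L-Tg APC, with Nop58 the farthest from 0.

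Nop10 belongs to the H/ACA snoRNPs, which convert uridine to pseudouridine in rRNA and are also part of telomerase. It had 3716 units with OX40L-Tg APC, against 3906 units with Wt APC, a difference of -0.07, while its other probe set differed by 0.09. Dkc1, the pseudouridine synthase of the same particle, had 1988 units with OX40L-Tg APC, against 1789 units with Wt APC (0.15). Gar1, named here by the list rule, had 1569 units with OX40L-Tg APC and 1307 units with Wt APC (0.26). Of the 4 core proteins of H/ACA snoRNPs, 3 were thus higher with OX40L-Tg APC, and Nop10 was the exception in the probe set that stands for it.

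Several members also carry snoRNAs in their introns. In the RefSeq annotation, Nop56 contains Snord110 and Snord57, Nop58 contains Snord11 and Snord70, and Nop53 contains Snord23. The probe sets read the host transcripts, so the snoRNAs themselves have no value here.

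The small subunit processome forms on the 5' part of the rRNA precursor around the U3 snoRNA. Its group is the largest, with 15 members, in which Rrp12, a factor of subunit export, was counted. With OX40L-Tg APC 13 of the 15 were higher, and the median difference was 0.10, from -0.26 to 0.43. Rrp12, which in yeast is needed for late maturation and export of the subunits, had 373 units with OX40L-Tg APC, against 277 units with Wt APC. Its difference of 0.43 (1.35-fold) was the largest of the 38 members, and 93.4% of all genes above the floor had a difference at or below it. Rrp9, a protein that binds the U3 snoRNA, had 584 units with OX40L-Tg APC, against 459 units with Wt APC (0.35, 1.27-fold). Both stand on 1 probe set each.

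Next in size came Nop9 and Utp23. Nop9, in yeast an RNA-binding protein that guards a cleavage site of the precursor, had 544 units with OX40L-Tg APC, against 476 units with Wt APC (0.19). Utp23, in yeast needed to release a snoRNA from the precursor, had 573 units with OX40L-Tg APC, against 508 units with Wt APC (0.18). The probe sets of Utp23 were split in direction, since 2 of 4 were higher with OX40L-Tg APC, and their differences ran from -0.03 to 0.28.

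The scaffold complexes UtpA and UtpB, which bind the start of the precursor first, are represented by Utp4 and Utp15 and by Utp6 and Utp18. Utp4 had 1308 units with OX40L-Tg APC, against 1217 units with Wt APC (0.10). Utp15 had 656 units with OX40L-Tg APC, against 618 units with Wt APC, and both of its probe sets differed by 0.09. In the probe sets that stand for them, the UtpB subunits were close to these. Utp6 had 818 units with OX40L-Tg APC and 771 units with Wt APC (0.09), while its other probe sets differed by 0.09 and 0.25. Utp18 had 660.4 units with OX40L-Tg APC and 645 units with Wt APC (0.03). Completed with their other subunits after the values were seen, UtpA was higher with OX40L-Tg APC in 6 of 6 genes, with a median of 0.09 and a range of 0.05 to 0.15. UtpB was likewise higher in 6 of 6 genes, with a median of 0.10 and a range of 0.03 to 0.25. Of all genes above the floor, 54.0% were higher with OX40L-Tg APC. Among the members named here Utp18 was the lowest and Utp4 the highest. Of all genes above the floor, 53.6% and 67.2% lay at or below them, in the same order.

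A middle group of processome factors differed by 0.09 to 0.14. Utp20, a long scaffold protein, had 712 units with OX40L-Tg APC and 648 units with Wt APC (0.14). Nop14, an organiser of the particle's core, had 756 units with OX40L-Tg APC and 688 units with Wt APC (0.14). Rrp36, which in yeast is needed for the early cleavages, had 307 units with OX40L-Tg APC and 279.8 units with Wt APC (0.13). Utp11 belongs to the same particle and had 1880.4 units with OX40L-Tg APC, against 1766 units with Wt APC (0.09), while its dimmer probe sets differed by 0.17 and 0.34.

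The last 3 processome members had differences near or below 0. Rrp7a, whose yeast counterpart belongs to the UtpC complex, had 577 units with OX40L-Tg APC and 559.7 units with Wt APC (0.04), and its dim probe sets near the floor differed by -0.24 and -0.21. Utp3, also called Sas10, had 1243 units with OX40L-Tg APC and 1265 units with Wt APC (-0.03). Utp14b had the lowest difference of all members, with 28.2 units with OX40L-Tg APC, against 33.8 units with Wt APC (-0.26, 0.83-fold). Utp14b is a retrogene, an intronless copy of the X-linked Utp14a that is known for its role in sperm formation in mice. Its level is near the floor, and whether its single probe set also reads Utp14a was not tested.

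Large subunit assembly was the role in which every member, 7 of 7, was higher with OX40L-Tg APC, with a median difference of 0.26 and a range of 0.02 to 0.37. Nop2, which methylates a cytosine of the large rRNA, had 843 units with OX40L-Tg APC, against 653 units with Wt APC (0.37, 1.29-fold). Rrp8, also called nucleomethylin, methylates an adenine of the same rRNA and had 367 units with OX40L-Tg APC, against 301 units with Wt APC (0.29, 1.22-fold). Both rRNA methyltransferases were thus among the larger differences of the group.

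Nop16, a nucleolar protein known as a Myc target in human cells, had 1093 units with OX40L-Tg APC, against 894 units with Wt APC (0.29), and its dim probe set differed by 0.20. Rrp15, needed for early large subunit particles, had 669 units with OX40L-Tg APC, against 559.9 units with Wt APC (0.26). After these 4 genes there is a gap in the values, but only among the probe sets that stand for the genes. The paralogs Rrp1b and Rrp1 and the factor Nop53 all differed by 0.07 or less in the probe sets that stand for them.

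Rrp1b had 448 units with OX40L-Tg APC and 427 units with Wt APC (0.07), while its other probe set differed by 0.17. Rrp1 had 2026 units with OX40L-Tg APC and 2001 units with Wt APC (0.02). Nop53 brings the exosome to the large subunit precursor in yeast and binds the 5S RNP in mammals. It had 2419 units with OX40L-Tg APC and 2354 units with Wt APC (0.04), while its other 2 probe sets differed by 0.19 and 0.39. The probe set with 0.39 was dim, at 39.6 units with OX40L-Tg APC and 30.2 units with Wt APC.

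The RNA exosome had 8 members, of which 6 were higher with OX40L-Tg APC, with a median difference of 0.15. Its cap, through which RNA enters, is made of Exosc1, Exosc2 and Exosc3. Exosc2 had 762 units with OX40L-Tg APC, against 629 units with Wt APC (0.28, 1.21-fold). Exosc1 had 988 units with OX40L-Tg APC, against 823 units with Wt APC (0.26, 1.20-fold). Exosc3 had 790.0 units with OX40L-Tg APC, against 731 units with Wt APC (0.11, 1.08-fold). All 3 subunits of the cap therefore had the higher value in the same culture.

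The ring below the cap is a barrel without catalytic activity in mammals, and 3 of its 4 analysed subunits were higher with OX40L-Tg APC. Exosc5 had 375 units with OX40L-Tg APC, against 327 units with Wt APC (0.20). Exosc9, known as an autoantigen in human polymyositis, had 732 units with OX40L-Tg APC, against 674 units with Wt APC (0.12). Exosc6 was at the floor, with 17.2 units with OX40L-Tg APC and 15.0 units with Wt APC (0.19), so its difference says little about its transcript. Exosc8 had the lower value with OX40L-Tg APC, at 2494 units, against 2573 units with Wt APC (-0.04).

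The nucleases attached to the barrel had differences close to 0. Exosc10, the exonuclease of the nuclear and nucleolar exosome, had 692 units with OX40L-Tg APC and 699 units with Wt APC (-0.01), and its other 3 probe sets differed by 0.02 to 0.25. Dis3, the exonuclease at the bottom of the barrel, had 1029.7 units with OX40L-Tg APC and 997 units with Wt APC (0.05). Of 14 exosome cofactors, Dis3 included, 8 were higher with OX40L-Tg APC, with a median of 0.04. Mphosph6, a protein that binds the nuclear exosome, had 842 units with OX40L-Tg APC and 671 units with Wt APC (0.33). C1d, a partner of Exosc10, had 1121 units with OX40L-Tg APC and 1262 units with Wt APC (-0.17).

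**Figure D2:**
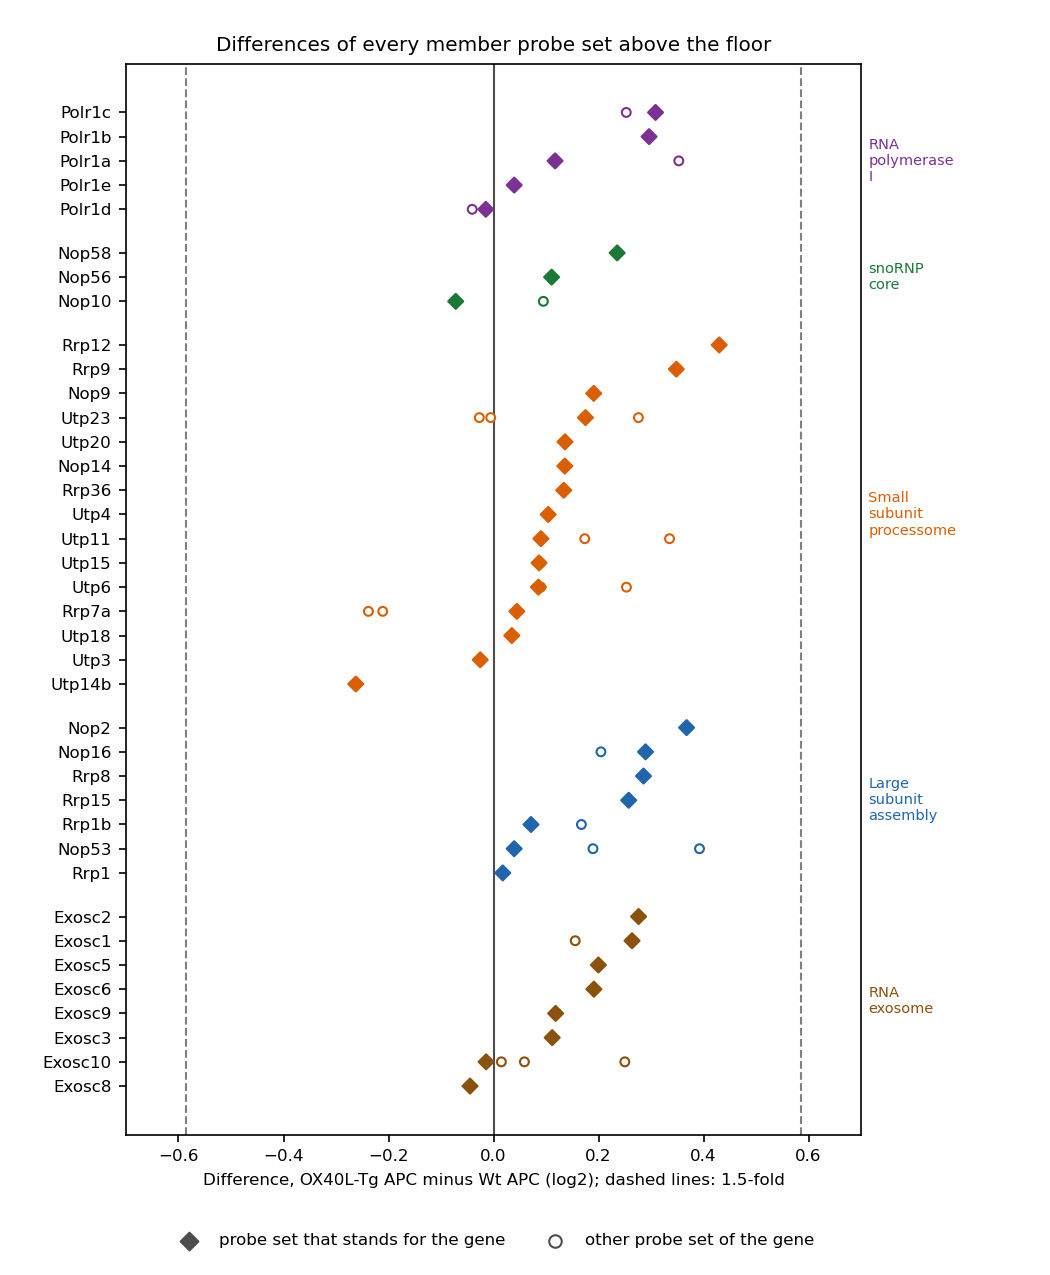
Difference of every member probe set above the floor, OX40L-Tg APC minus Wt APC in log2 units, 1 line per gene and grouped by role. Diamonds are the probe sets that stand for a gene, open circles its other probe sets, and dashed lines mark 1.5-fold; 50 of 61 points lie right of 0 and all lie between the dashed lines.

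Probe sets of the same gene give the only view of measuring scatter that the members themselves offer. Above the floor were 61 of the 64 member probe sets, and 50 of these were higher with OX40L-Tg APC, beside 53.5% of 16981 probe sets of all genes. Of 14 members with more than 1 probe set above the floor, 9 had all of them higher with OX40L-Tg APC. Polr1d had all of them lower, and Utp23, Rrp7a, Exosc10 and Nop10 were mixed. The same counts were not made over all genes. The SD between probe sets of one gene, pooled, was 0.12 over these 14 members and 0.18 over 4195 genes with more than 1 probe set above the floor. Set against the value of 0.18 for all genes, 14 members lay above it, 1 lay farther than that below 0 and 23 lay within it. Nop9 was the lowest of the 14, and 79.2% of all genes above the floor had a difference at or below its 0.19. Against the members' own value of 0.12 the numbers were 18, 1 and 19. The lowest of the 18 was Rrp36 (0.13), and 71.9% of all genes above the floor lay at or below it. The scatter between probe sets is within 1 RNA sample per group and holds nothing of the spread between cultures or mice.

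Spike controls of the arrays differed in the same direction as most members, and background controls in the opposite direction. The hybridisation spikes, transcripts added after labelling, were higher on the OX40L-Tg APC array in 16 of 18 probe sets, with a median of 0.10 and a range of -0.03 to 0.32. The poly-A spikes, transcripts of bacterial genes meant to be added to the RNA before labelling, were higher on that array in 23 of 23 probe sets above the floor, with a median of 0.59 and a range of 0.31 to 0.74. Probe sets for non-specific background were lower on that array in 4 of 4 above the floor, with a median of -0.31 and a range of -0.52 to -0.26. Of the 38 members, 23 lay above the median hybridisation spike and 3 above the highest. Only 4 members lay above the lowest poly-A spike. The lowest of the 23 was Utp4 (0.10), of the 3 Rrp9 (0.35) and of the 4 Polr1c (0.31). Of all genes above the floor, 67.2%, 90.4% and 88.7% lay at or below these values, in the same order. The part of the differences between control probe sets in the members' shift was not tested. RMA brings the distributions of arrays together, and the medians over all probe sets were 3.88 on both, so a difference is best read relative to the other genes and not as an amount per cell.

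**Figure D3:**
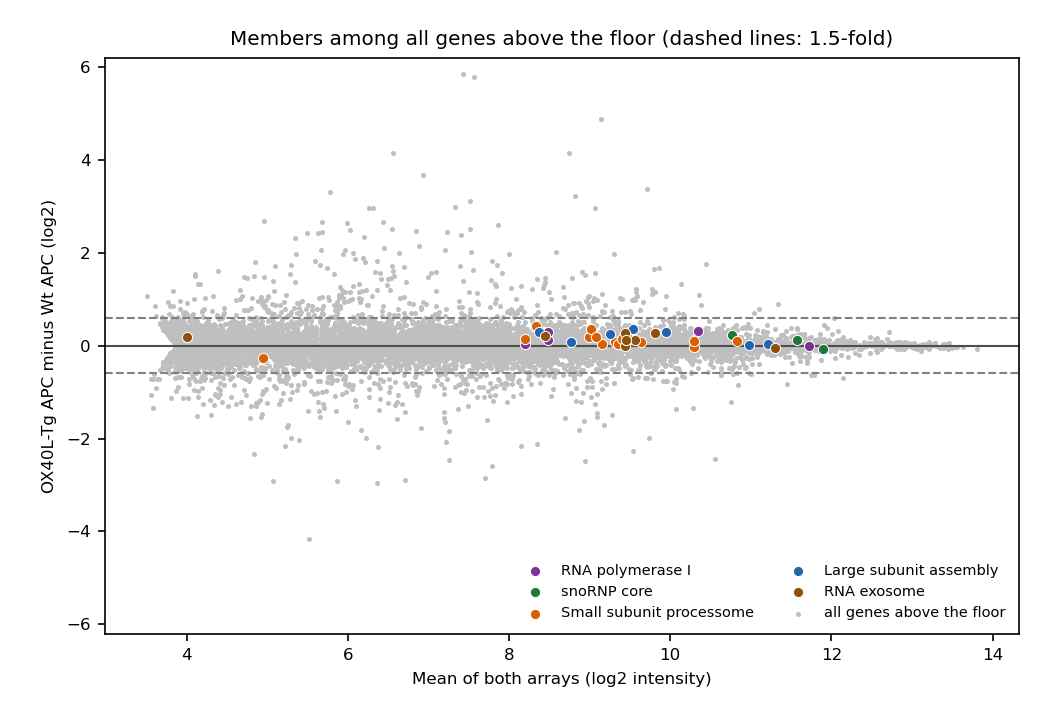
Difference of each gene above the floor, OX40L-Tg APC minus Wt APC in log2 units, against its mean log2 intensity over both arrays. Grey points are all 10541 genes and coloured points the 38 members by role, and dashed lines mark 1.5-fold; the members lie between -0.26 and 0.43 inside the grey band, most of them above 0.

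The members are not alone in this shift, since most other assembly factors had small differences of the same sign. Of 33 other small subunit factors, 27 were higher with OX40L-Tg APC, with a median of 0.10. Dhx37, a helicase that frees the U3 snoRNA from the precursor in yeast, had 33.4 units with OX40L-Tg APC, against 24.4 units with Wt APC (0.45). Bysl, an assembly factor of late small subunit particles, had 811 units with OX40L-Tg APC, against 663 units with Wt APC (0.29). Rcl1, which in yeast takes part in an early cleavage, had 546 units with OX40L-Tg APC and 447 units with Wt APC (0.29).

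Of 33 other large subunit factors above the floor, 32 were higher with OX40L-Tg APC, with a median of 0.13. Nle1, an adaptor for the ATPase that strips factors off the particle, had 243 units with OX40L-Tg APC, against 184 units with Wt APC (0.40). Eif6, which keeps the new large subunit from joining the small one too early, had 2524 units with OX40L-Tg APC and 2055 units with Wt APC (0.30). Ddx56, a nucleolar helicase, had 429.9 units with OX40L-Tg APC and 348 units with Wt APC (0.30). In both lists 0 genes reached 1.5-fold in either direction, as among the members. Of 15 other snoRNP and nucleolar proteins, 12 were higher with OX40L-Tg APC, with a median of 0.07. The largest negative difference there, that of Nufip1 (-0.29), stood on 627 units with OX40L-Tg APC and 767 units with Wt APC. The largest positive difference there, that of Ncl (0.34), stood on 17.3 units with OX40L-Tg APC and 13.6 units with Wt APC. Ncl reached the floor only on the array where it was higher, so its direction was fixed in advance.

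Ribosomal proteins, the material that the members assemble, were centred on 0. Of 69 cytosolic ribosomal protein genes above the floor, 36 were higher with OX40L-Tg APC and 33 were lower, with a median of 0.00. Their quartiles were -0.02 and 0.03, and the range was -0.12 to 0.14. Most of these genes were brighter than every member, of which the brightest, Nop10, had 3906 units with Wt APC. The highest value on either array was 14686 units, and whether differences are compressed at such levels was not tested. Rps19, a small subunit protein, had 8472 units with OX40L-Tg APC and 9235 units with Wt APC (-0.12). Rpl7l1, a paralog of a large subunit protein, had 961 units with OX40L-Tg APC and 869.6 units with Wt APC (0.14). Mitochondrial ribosomal proteins were split as well, with 38 of 73 higher with OX40L-Tg APC and a median of 0.01.

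The subunits of the other nuclear polymerases had small positive medians. Of 11 RNA polymerase II subunits, including those shared by all 3 polymerases, 8 were higher with OX40L-Tg APC, with a median of 0.06. The 4 shared subunits analysed, Polr2e, Polr2f, Polr2h and Polr2l, picked for this after their values were seen, were all higher, by 0.03 to 0.17. Of 8 RNA polymerase III subunits, 5 (62.5%) had the higher value, beside 54.0% of all genes above the floor. The median of the 8 was 0.10, with quartiles of -0.09 and 0.23 and a range of -0.14 to 0.35. Polr3a, the largest subunit of that enzyme, had 508 units with OX40L-Tg APC, against 406 units with Wt APC (0.32), and Polr3d had 149 units with OX40L-Tg APC, against 117 units with Wt APC (0.35).

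Myc itself was not higher. Its single probe set had 1631 units with OX40L-Tg APC, against 1772 units with Wt APC, a difference of -0.12. Of 8 genes of the Myc network above the floor, 6 had the lower value with OX40L-Tg APC, with a median of -0.12. Those with the largest differences were Mxd1, Mxd4 and Mxi1, which encode repressors that compete with Myc for its partner Max. Mxd1 had 126 units with OX40L-Tg APC, against 225 units with Wt APC (-0.84), which is 1.79-fold lower with OX40L-Tg APC, and all 3 of its probe sets were lower. Mxd4 had 54.0 units with OX40L-Tg APC and 74.2 units with Wt APC (-0.46). Mxi1 had 730.4 units with OX40L-Tg APC and 913 units with Wt APC (-0.32). The probe sets of Mxd4 and Mxi1 above the floor, 3 and 2 in number, were likewise all lower.

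Cell cycle genes, which often change together with growth genes in activated T cells, leaned to the other side. Of 35 such genes, 14 were higher with OX40L-Tg APC and 21 were lower, with a median of -0.05, and 0 differed by 1.5-fold. E2f2, a transcription factor of S phase entry, had 292 units with OX40L-Tg APC and 407 units with Wt APC (-0.48). Mybl2, a factor of later cycle genes, had 299.7 units with OX40L-Tg APC and 229 units with Wt APC (0.39).

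**Figure D4:**
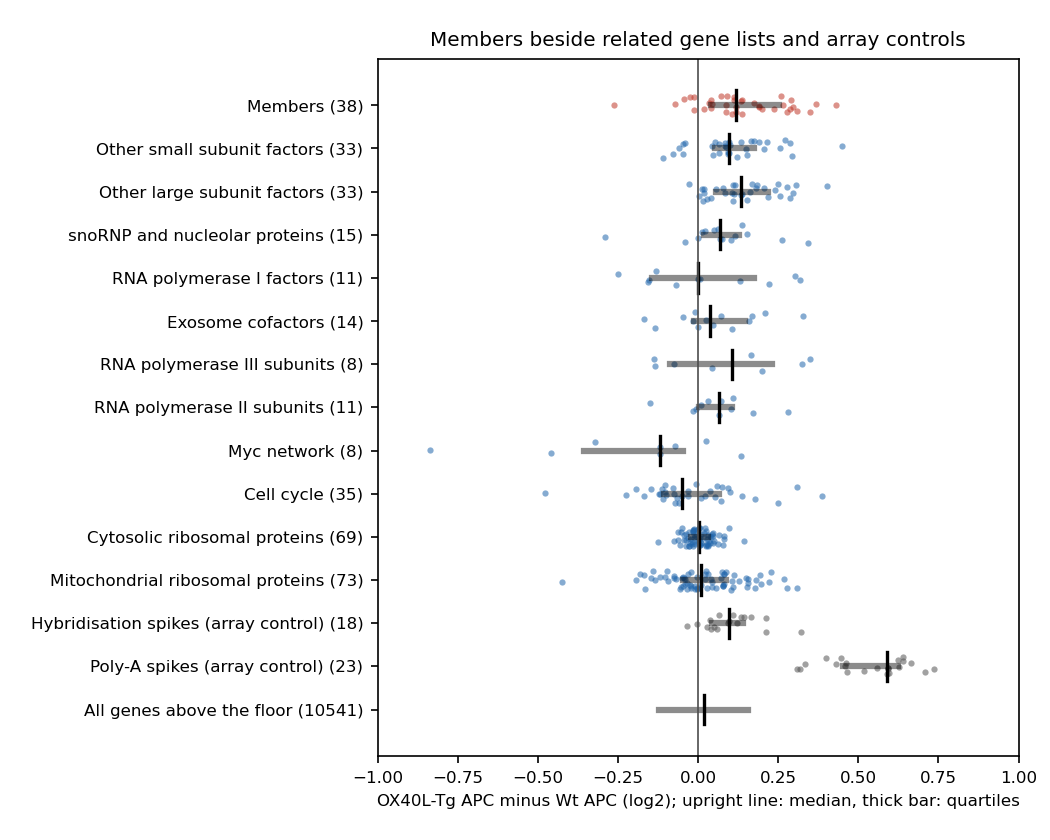
Differences of the members, of related gene lists and of array controls, OX40L-Tg APC minus Wt APC in log2 units. Points are genes or control probe sets above the floor, with their number in brackets, upright lines medians and thick bars quartiles; the members (median 0.12) lie beside the other assembly factors (0.10 and 0.13) and the hybridisation spikes (0.10), while cytosolic ribosomal proteins lie at 0.00 and all genes at 0.02.

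The purity of the sorted cells bears on every value above, since transcripts of other cells enter a bulk sample. T cell markers were above the floor in 8 of 8 genes in the table and lower with OX40L-Tg APC in 8 of 8, with a summed level of 13454 units with OX40L-Tg APC and 16760.5 units with Wt APC. Cd4, which defines the sorted cells, had 1143 units with OX40L-Tg APC and 1409.9 units with Wt APC. Markers of the APC were on the whole higher with OX40L-Tg APC. The MHC class II list was higher in 8 of 9 genes above the floor (summed 4017 units with OX40L-Tg APC and 3014 units with Wt APC), with Ciita below it. B cell markers were higher in 6 of 7 (991 units with OX40L-Tg APC and 723 units with Wt APC), with Pax5 and Cr2 below the floor. Dendritic cell markers were higher in 5 of 6 (1583 units with OX40L-Tg APC and 755 units with Wt APC), with Xcr1 and Cd209a below the floor. Nearly all of that gap came from 3 genes, named after their values were seen. Batf3 had 574 units with OX40L-Tg APC and 95.1 units with Wt APC, Ccl22 had 764 units with OX40L-Tg APC and 518 units with Wt APC, and Ccl17 had 149.6 units with OX40L-Tg APC and 55.1 units with Wt APC. The dendritic cell genes Itgax, Flt3 and Zbtb46 were dim on both arrays, and Flt3 was lower with OX40L-Tg APC.

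Of 8 macrophage markers 3 were above the floor, at 65.7 units with OX40L-Tg APC and 51.0 units with Wt APC in sum, and Csf1r, Lyz2, Adgre1, Itgam and Marco were below it. Both CD8 genes were higher with OX40L-Tg APC, at 270.2 units in sum, against 219 units with Wt APC. Of 3 NK cell genes, Klrb1c was at the floor, with 14.3 units with OX40L-Tg APC and 17.1 units with Wt APC, and Ncr1 and Klra8 were below it. Klrb1c reached the floor only on the Wt APC array, where it was higher, so its direction was fixed in advance. The 3 erythroid markers above the floor summed to 232 units with OX40L-Tg APC and 1194 units with Wt APC, with Slc4a1 below it. Nearly all of that sum was Hba-a1, a globin gene, with 207 units with OX40L-Tg APC and 1161 units with Wt APC. Alas2 and Klf1 reached the floor only on the Wt APC array, where they were higher, so their direction was fixed in advance. The part of these cell types in the members' differences was not tested. The extraction text of the labels speaks of adipose tissue, and the adipocyte genes Adipoq, Fabp4 and Lep were below the floor on both arrays. The other 2 adipocyte list genes in the table were dim and higher with OX40L-Tg APC. Retn had 18.3 units with OX40L-Tg APC and 17.2 units with Wt APC. Pparg had 21.4 units with OX40L-Tg APC and 9.53 units with Wt APC. Pparg reached the floor only on the array where it was higher, so its direction was fixed in advance.

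On the genome the members are scattered, with few close neighbours in the RefSeq annotation. Rrp12 and Exosc1 have 1 protein-coding gene between them, and Polr1e and Exosc3 have 4. The first of these pairs holds differences of 0.43 and 0.26, and the second holds 0.04 and 0.11.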

How the data were processed

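RNA from CD4 T cells was measured on 2 arrays. Per the submitters' processing notes, the authors used RMA, and the deposited intensities are linear. The version of RMA, and which arrays were normalized together, are not given in the sources used here. It corrects background and equalises the arrays, which understates differences of dim probe sets. Log2 was taken here. The 45141 probe sets were paired with genes by the platform annotation: 28898 had 1 symbol, 551 had several and 15692 were not listed. Each gene is represented by its brightest probe set (mean of both arrays). All 38 members had the same symbol in RefSeq by Entrez number. No test is possible with 1 array per group, and the number of arrays limits the precision. All members may be named; from each related list the 3 genes with the largest difference above the floor may be, with Myc, Fbl, Ubtf, Rrn3, Dkc1 and Dis3. Members, lists and complexes were chosen with earlier results of these data known. The arithmetic of the differences was checked on simulated data with known answers, which is no test of the results. Alternatives were other ways to choose probe sets, other floors, a lowess correction and an offset of 32 units. Python 3.11.15, numpy 2.4.6, pandas 2.3.3, statsmodels 0.14.6 and matplotlib 3.10.9 were used.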

Additional observations from a re-analysis of the deposited data

How the results depend on the processing

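The count of members higher with OX40L-Tg APC was 32 of 38 with the median over a gene's probe sets, with no floor, with a lowess curve over intensity subtracted and with 32 units added before log2. It was 31 of 36 with the floor at the 75th percentile, which leaves out Exosc6 and Utp14b, and 30 of 34 with probe sets not marked as shared between transcripts. The median ran from 0.10 (lowess) to 0.15 (unshared probe sets), and under each of these settings 0 members reached 1.5-fold in either direction. Over all genes the share with the higher value was 50.1% after lowess and 55.9% with the higher floor. The sign of Exosc10, Nop10, Rrp7a and Utp18 changed with the median over probe sets, and that of Exosc10, Nop10 and Utp23 with unshared probe sets. With unshared probe sets Exosc10 differed by 0.25, Nop53 by 0.39 and Utp23 by -0.03; the cause was not tested.

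No paired analysis was possible because each group has 1 array, and for the same reason no replicate could be left out. Nothing here measures the spread between cultures, mice or arrays, and differences of the size seen among the members are of the order of the scatter between probe sets of one gene (SD 0.18) and of the hybridisation spikes (median 0.10). Values near the floor, as of Exosc6, Utp14b and Dhx37, are compressed by RMA and show no presence of a transcript.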
